A study of Homo sapiens with 14 samples.

Results

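The genes described here are 42 genes of DNA replication and S phase, measured in human melanoma cells in which the forkhead transcription factor FOXD1 was targeted by siRNA or overexpressed. They were chosen by symbol, as the licensing, helicase, polymerase, clamp, maturation, nucleotide, histone-supply and G1 to S genes of S phase. Each gene was represented by its brightest named probe. Of the 42 genes, 41 had a probe with a detection p-value under 0.05 on at least 2 arrays and were tested among 15544 genes in all. The exception was CCNE2, a partner of CDK2 at the start of S phase, whose only probe was detected on 0 of 14 arrays and lay between 6.28 and 6.51 on the log2 scale.

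Replication is prepared in G1, when the origin recognition complex, CDC6 and CDT1 load the MCM helicase onto origins. At the start of S phase, kinases, MCM10, CDC45 and the GINS complex turn that helicase on, and primase, the polymerases, the PCNA clamp and its RFC loader copy the strands while ribonucleotide reductase, thymidylate synthase and histone chaperones supply deoxynucleotides and histones. Most of these genes are known targets of the E2F factors, which are released when cyclin-dependent kinases phosphorylate the retinoblastoma protein, so their RNA is known to rise together in cells that enter S phase.

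The 14 Illumina bead arrays were hybridised with biotin-labelled total RNA. WM266-4 cells, a melanoma line with a BRAF mutation per the labels, received a Stealth negative control siRNA of high GC content, FOXD1 siRNA 1 or FOXD1 siRNA 2, on 3 arrays each. A375 cells, a melanoma line with a BRAF mutation per the labels, received the empty backbone of the FOXD1 plasmid on 2 arrays or the FOXD1 plasmid on 3 arrays, and the labels speak of both transfected and transduced cells. No drug is named for any group. A label of the siRNA 2 arrays names FOXD2 in place of FOXD1, and their siRNA sequence is written there with a gap, which was closed here. The labelled sequences, 25 bases each and of unstated strand, are shown because the gene set behaved differently with each of them.
FOXD1 siRNA 1: uacugcuaggauuuccaauuguuaa
FOXD1 siRNA 2: gccgaggaaacagacaucgacgugg

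All values are the authors' log2 signals unless stated otherwise, and values of 3 arrays are given in the order of the replicate numbers. FOXD1 itself differed by -0.52 with siRNA 1 (adjusted p = 0.00113), by 0.04 with siRNA 2 (adjusted p = 0.874) and by 0.31 with overexpression (adjusted p = 0.0744), so the arrays labelled siRNA 2 showed no lower FOXD1 signal. FOXD1 was dim in WM266-4. It read 6.97, 7.0 and 7.21 with control siRNA, 6.49, 6.50 and 6.63 with siRNA 1, and 7.10, 7.14 and 7.06 with siRNA 2. The undetected CCNE2 probe lay between 6.28 and 6.51, so the FOXD1 differences in WM266-4 may understate a loss. FOXD2 differed by -0.04 with siRNA 2 (adjusted p = 0.907). CCN2, the gene of the growth factor CTGF that the series title names, fell with siRNA 1 (-2.91, adjusted p = 2.44e-07 by limma) and with siRNA 2 (-3.13, adjusted p = 2.26e-07). With overexpression CCN2 rose (1.97, limma adjusted p = 0.00013). Between 46.0% and 50.4% of probes were detected per array. The melanocytic markers PMEL, TYR, MITF, SOX10, CSPG4 and MCAM were detected on every array, and PTPRC, CD3E, CDH5, PDGFRA and KRT8 of the immune, endothelial, fibroblast and epithelial lists on none. MLANA and S100B of the melanocytic list were detected on 3 and 8 of the 9 WM266-4 arrays, and on all 5 A375 arrays. CD14, VWF and COL1A2 of the other lists were detected on every array. LYZ, LUM, DCN and EPCAM were detected on 9, 8, 7 and 5 of the 9 WM266-4 arrays, at mean signals of 6.67 to 6.79 there. In A375 they were detected on 0, 4, 1 and 3 of the 5 arrays. The remaining measured markers of the other lists were detected on at most 3 arrays of either line. The deposited intensity column of empty vector replicate 1 repeats that of overexpression replicate 3, so the A375 results rest on the authors' log2 values for that array. Nothing in the labels shows whether replicates came from separate cultures, and p-values therefore reflect the spread among these arrays alone, which may be technical. In bulk RNA, fewer cells in S phase and less RNA per cell cannot be told apart.

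The RefSeq promoter table of build GRCh38.p14, which holds the 250 bases before and 50 bases after a gene's start, matched 37 of the 42 genes and left out MCM4, MCM5, GINS4, RPA2 and CCNE2. The E2F motifs, TTTCCCGC and TTTGGCGC, were searched on both strands. TTTCCCGC was found in 9 of the 37 promoters (24.3%, against 1.66% of 27305 promoters of that length), and TTTGGCGC in 7 (18.9% against 0.659%). Either form was found in 16 (43.2% against 2.31%). CCAAT was found in 22 (59.5% against 35.7%), TTTGAA of the CHR element in 1, RRM1 (2.7% against 15.4%), and the forkhead core GTAAACA in 0 (0% against 3.41%). None of these letter strings contains another, and a match is a description of letters only. The following stretches of 60 bases before the start are shown because their genes moved together in some comparisons and apart in others, and the capitals mark the E2F match on the strand shown.
MCM6, chr2:135876500-135876559, minus strand, -116 to -57 from the start: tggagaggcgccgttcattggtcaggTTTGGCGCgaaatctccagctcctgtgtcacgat
GINS2, chr16:85688955-85689014, minus strand, -60 to -1 from the start: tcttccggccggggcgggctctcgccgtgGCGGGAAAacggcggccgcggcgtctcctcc
CDT1, chr16:88803728-88803787, plus strand, -61 to -2 from the start: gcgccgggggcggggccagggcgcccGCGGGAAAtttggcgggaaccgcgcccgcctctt
RFC3, chr13:33818068-33818127, plus strand, -81 to -22 from the start: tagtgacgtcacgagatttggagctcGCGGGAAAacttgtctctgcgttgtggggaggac
PCNA, chr20:5126648-5126707, minus strand, -85 to -26 from the start: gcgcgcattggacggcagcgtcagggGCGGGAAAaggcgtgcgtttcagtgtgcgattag
TYMS, chr18:657588-657647, plus strand, -65 to -6 from the start: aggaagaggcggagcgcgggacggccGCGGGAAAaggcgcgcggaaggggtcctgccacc
E2F1, chr20:33686386-33686445, minus strand, -60 to -1 from the start: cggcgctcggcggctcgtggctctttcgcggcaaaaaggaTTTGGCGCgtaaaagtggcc
MCM6, GINS2, CDT1 and RFC3 fell with siRNA 1, PCNA and TYMS did not pass the test, and E2F1 rose, so genes with an E2F match were found in each class. With siRNA 1, the 16 genes with an E2F match had a median difference of -0.56 and the 21 without had one of -0.65, with 10 and 17 of them lower.

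With siRNA 1, most of the replication machinery had a lower signal in WM266-4 cells. Of the 41 genes, 30 fell and E2F1 rose, against 7.41% of all 15544 genes lower and 7.89% higher. The median difference over the genes was -0.58, against 0.003 over all genes tested, and 38 of the 41 differences were negative, against 49.1% of all genes. The decreases reached from the histone mRNA binding protein SLBP (-1.23) and the ribonucleotide reductase subunit RRM2 (-1.20) to ORC1 (-0.36). Their sizes depended on the processing. Over the other settings and leave-out fits, SLBP ranged from -1.49 to -1.13, RRM2 from -2.37 to -1.08 and ORC1 from -0.92 to -0.31. The genes that did not pass the test were ORC6, CDC6, GINS1, POLE, POLD1, PCNA, RFC1, RPA2, TYMS and CCNE1.

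With siRNA 2 the same cells showed another picture. Of the 41 genes, 0 fell and 9 rose by the limma test, against 3.85% of all genes lower and 5.1% higher. At an unadjusted p under 0.05, 0 were lower and 20 higher, against 9.42% and 11.1% of all genes. The 9 genes were ORC1, CDT1, MCM3, MCM10, POLD1, RFC3, RPA2, TYMS and CHAF1A, and the median difference of the 41 genes was 0.18, against 0 over all genes. The siRNA 1 and siRNA 2 groups were compared with the same control arrays, so the differences from control are given side by side. The count of 9 was fragile: it was 3 without control replicate 1 or siRNA 2 replicate 2, 4 without control replicate 3, 5 without control replicate 2 or siRNA 2 replicate 3, and 4 after normexp background correction and quantile normalization over 14 arrays. Of the 14 fits that left out an array, MCM3 and RFC3 stayed called in all, ORC1, CDT1, MCM10 and POLD1 in 10 to 12, RPA2 in 8, TYMS in 5 and CHAF1A in 4.

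The direct contrast of the siRNAs, which uses no control array, separated the genes further. With siRNA 1, 35 of the 41 genes were lower than with siRNA 2 and E2F1 was higher, against 4.46% of all genes lower and 2.71% higher. The median difference was -0.89, against 0.01 over all genes, and 39 of the 41 differences were negative, against 47.2% of all genes. ORC6, GINS1, LIG1, TYMS and CCNE1 did not pass the test. With the replicate number as a block, which the pairing of the arrays allowed, the count with siRNA 2 against control went from 9 to 15 higher genes, adding MCM5, MCM6, GINS2, POLA2, RFC5 and FEN1, while the share of all genes called higher went from 5.1% to 8.87%.

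**Figure D1:**
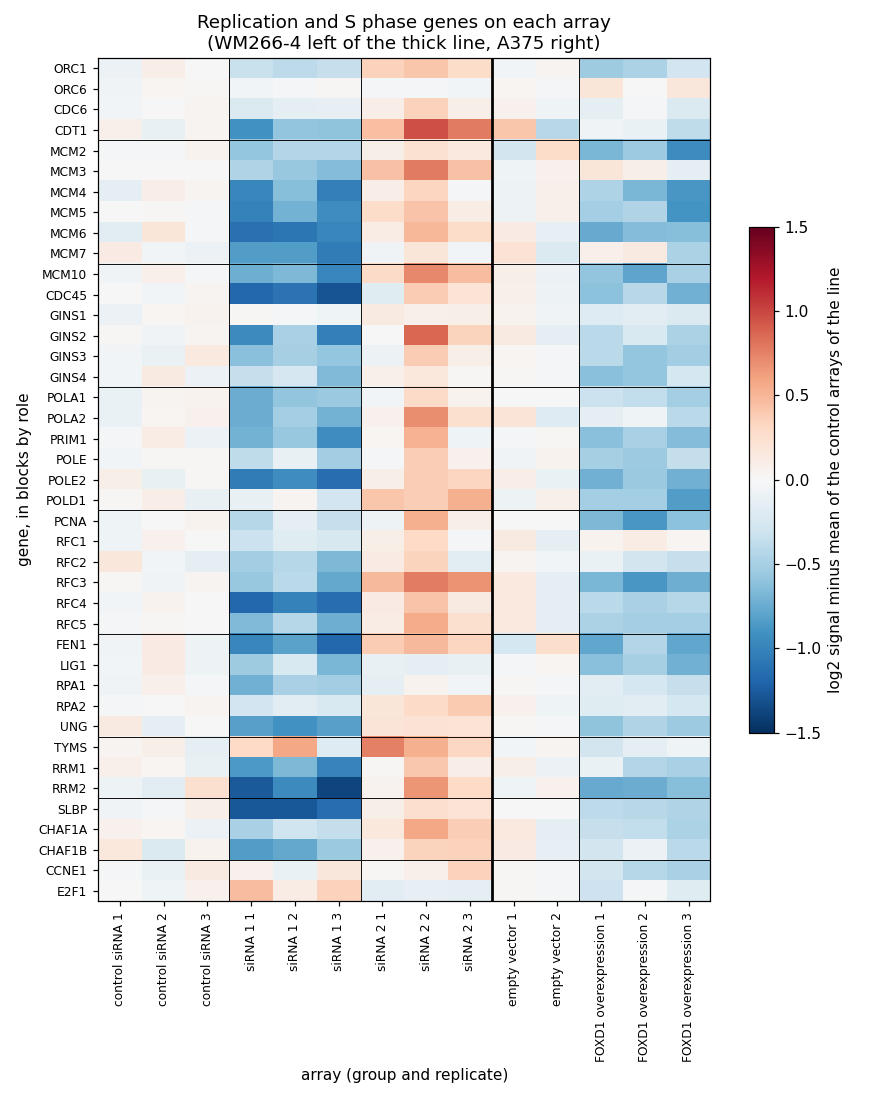
Log2 signal of the 41 genes (rows, in blocks by role) on each of the 14 arrays (columns), minus the mean of the control arrays of the same cell line. Blue fills most rows on the siRNA 1 arrays and on the overexpression arrays, pale red most rows on the siRNA 2 arrays, and E2F1 is red with siRNA 1.

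Origin licensing genes differed among themselves. ORC1 read 7.09, 7.28 and 7.17 with control siRNA, 6.85, 6.79 and 6.83 with siRNA 1 and 7.53, 7.60 and 7.45 with siRNA 2. ORC1, the ATP-binding large subunit of the origin recognition complex, had no overlap between the 3 groups, with differences from control of -0.36 for siRNA 1 (adjusted p = 0.00978) and 0.35 for siRNA 2 (adjusted p = 0.0189). CDT1 read 8.05, 7.86 and 8.01 with control siRNA, 7.07, 7.38 and 7.37 with siRNA 1 and 8.42, 8.94 and 8.75 with siRNA 2. CDT1, which brings the MCM complex to origins, was lowest on all siRNA 1 arrays and highest on all siRNA 2 arrays, and siRNA 1 minus siRNA 2 was -1.43 (95% interval -1.81 to -1.05, adjusted p = 9.75e-05). CDC6, the other loader, was not detected on any siRNA 1 array. It was at least 1.25-fold lower there than with siRNA 2 (limma adjusted p = 0.0333). Against control the bound was 1.11-fold lower and did not pass the test (95% interval of the log2 difference -0.35 to 0.03, adjusted p = 0.31). ORC6, the smallest subunit of the origin complex, had differences between -0.03 and 0.01 in the 3 contrasts by its brightest probe. That probe read 13.53 to 13.74 over the 14 arrays, above every other gene of the set. The other detected ORC6 probe, at a mean of 7.81, gave -0.30 with siRNA 1, 0.42 with siRNA 2 and -0.72 for siRNA 1 minus siRNA 2. Each of these passed the test over probes, so the ORC6 result depended on the probe.

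All 6 subunits of the MCM helicase ring fell with siRNA 1, with a median difference of -0.88. MCM6 read 10.19, 10.55 and 10.35 with control siRNA, 9.25, 9.28 and 9.38 with siRNA 1 and 10.48, 10.86 and 10.64 with siRNA 2. MCM7 read 12.33, 12.16 and 12.12 with control siRNA, 11.36, 11.37 and 11.15 with siRNA 1 and 12.15, 12.38 and 12.16 with siRNA 2. MCM4 read 9.85, 10.09 and 10.04 with control siRNA, 9.02, 9.35 and 8.97 with siRNA 1 and 10.09, 10.32 and 9.96 with siRNA 2. On these probes the siRNA 1 arrays lay below every other WM266-4 array by more than the spread within a group, and MCM6 differed from control by -1.06 (SE 0.112, adjusted p = 1.06e-05). MCM5 read 9.15, 9.17 and 9.12 with control siRNA, 8.13, 8.44 and 8.21 with siRNA 1 and 9.42, 9.58 and 9.26 with siRNA 2. MCM2 read 7.43, 7.43 and 7.51 with control siRNA, 6.88, 7.02 and 7.02 with siRNA 1 and 7.55, 7.69 and 7.60 with siRNA 2. MCM5 and MCM2, neighbours in the ring whose contact forms the gate that opens for DNA, differed from control by -0.89 and -0.48 with siRNA 1. MCM3 read 11.01, 11.0 and 11.01 with control siRNA, 10.55, 10.44 and 10.36 with siRNA 1 and 11.45, 11.79 and 11.45 with siRNA 2. MCM3 went both ways from its control level, which was almost the same on the 3 control arrays, with -0.56 for siRNA 1 and 0.56 for siRNA 2 (adjusted p = 0.00195 and 0.00367). With siRNA 2 the other 5 subunits had differences from 0.03 (MCM7) to 0.30 (MCM6), which did not pass the test.

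Helicase activation genes fell with siRNA 1 except GINS1. CDC45 read 10.26, 10.22 and 10.31 with control siRNA, 9.09, 9.16 and 8.97 with siRNA 1 and 10.08, 10.65 and 10.47 with siRNA 2. CDC45, the co-factor that forms the active helicase with MCM and GINS, differed from control by -1.19 (95% interval -1.45 to -0.93, adjusted p = 9.09e-06). MCM10 read 8.02, 8.15 and 8.05 with control siRNA, 7.34, 7.40 and 7.09 with siRNA 1 and 8.36, 8.79 and 8.54 with siRNA 2. MCM10, a factor needed to start the helicase, fell with siRNA 1 (-0.80) and rose with siRNA 2 (0.49). GINS2 read 9.30, 9.23 and 9.33 with control siRNA, 8.33, 8.80 and 8.26 with siRNA 1 and 9.29, 10.15 and 9.62 with siRNA 2. GINS3 read 8.06, 8.01 and 8.25 with control siRNA, 7.48, 7.61 and 7.53 with siRNA 1 and 8.02, 8.49 and 8.20 with siRNA 2. GINS4 read 7.52, 7.70 and 7.48 with control siRNA, 7.22, 7.32 and 6.90 with siRNA 1 and 7.64, 7.73 and 7.59 with siRNA 2. GINS2, GINS3 and GINS4, subunits of the GINS complex, differed from control by -0.82, -0.57 and -0.42 with siRNA 1. GINS2 spread most on the siRNA 2 arrays, where replicate 1 lay within the control range and replicate 2 far above it. GINS1, the remaining subunit, was dim, with differences of -0.03 and 0.10.

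Among the polymerases and primase, 4 of 6 genes fell with siRNA 1. POLE2 read 8.50, 8.30 and 8.42 with control siRNA, 7.36, 7.48 and 7.26 with siRNA 1 and 8.50, 8.78 and 8.73 with siRNA 2. POLE2, the B subunit of the leading-strand polymerase epsilon, differed from control by -1.04 (adjusted p = 4.02e-06). PRIM1 read 8.68, 8.82 and 8.61 with control siRNA, 8.0, 8.14 and 7.77 with siRNA 1 and 8.73, 9.22 and 8.64 with siRNA 2. POLA2 read 8.64, 8.77 and 8.80 with control siRNA, 7.99, 8.23 and 8.03 with siRNA 1 and 8.80, 9.43 and 8.98 with siRNA 2. POLA1 read 8.24, 8.38 and 8.39 with control siRNA, 7.59, 7.74 and 7.78 with siRNA 1 and 8.30, 8.62 and 8.39 with siRNA 2. PRIM1, the catalytic primase, and POLA1 and POLA2, subunits of the polymerase alpha that extends the primers, fell by 0.73, 0.63 and 0.65 on the log2 scale, and none of their siRNA 1 arrays reached a control array. POLD1 read 7.18, 7.27 and 7.05 with control siRNA, 7.05, 7.21 and 6.88 with siRNA 1 and 7.58, 7.54 and 7.70 with siRNA 2. POLD1, the catalytic subunit of the lagging-strand polymerase delta, overlapped control with siRNA 1 (-0.12) and lay above it with siRNA 2 (0.44, adjusted p = 0.0191). POLE, the catalytic subunit of polymerase epsilon, had differences of -0.33 with siRNA 1 (adjusted p = 0.061) and 0.14 with siRNA 2, and fell in the contrast of the siRNAs (-0.47).

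The clamp PCNA and its loader behaved unequally. PCNA read 11.18, 11.25 and 11.30 with control siRNA, 10.82, 11.10 and 10.90 with siRNA 1 and 11.17, 11.78 and 11.33 with siRNA 2. PCNA, the sliding clamp that holds polymerases on DNA, had siRNA 1 arrays below all control arrays, yet its difference of -0.30 did not pass the test (adjusted p = 0.146), and replicate 2 was the highest array of both siRNA groups. RFC4 read 9.63, 9.72 and 9.66 with control siRNA, 8.49, 8.66 and 8.53 with siRNA 1 and 9.79, 10.10 and 9.80 with siRNA 2. RFC5 read 8.79, 8.84 and 8.83 with control siRNA, 8.16, 8.39 and 8.09 with siRNA 1 and 8.93, 9.38 and 9.06 with siRNA 2. RFC2 read 8.28, 8.07 and 7.98 with control siRNA, 7.59, 7.68 and 7.44 with siRNA 1 and 8.23, 8.44 and 7.94 with siRNA 2. RFC2, RFC4 and RFC5, small subunits of the clamp loader, fell with siRNA 1 by 0.54, 1.11 and 0.61. RFC3 read 8.43, 8.36 and 8.46 with control siRNA, 7.85, 8.01 and 7.65 with siRNA 1 and 8.90, 9.18 and 9.09 with siRNA 2. RFC3, another small subunit, fell with siRNA 1 (-0.58) and rose with siRNA 2 (0.64, adjusted p = 0.00152), and siRNA 1 minus siRNA 2 was -1.22. RFC1, the large subunit, had differences of -0.24 and 0.12 that did not pass the test and fell in the contrast of the siRNAs (-0.37).

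Genes of flap removal, ligation, single-strand binding and uracil repair followed. FEN1 read 10.68, 10.86 and 10.66 with control siRNA, 9.75, 9.93 and 9.56 with siRNA 1 and 11.12, 11.22 and 11.06 with siRNA 2. FEN1, the nuclease that trims Okazaki fragments, differed from control by -0.99 with siRNA 1 (adjusted p = 0.000119) and by 0.40 with siRNA 2 (adjusted p = 0.0846), and siRNA 1 minus siRNA 2 was -1.39. UNG read 9.89, 9.62 and 9.77 with control siRNA, 8.95, 8.85 and 8.95 with siRNA 1 and 9.95, 9.98 and 9.97 with siRNA 2. UNG, which removes uracil from DNA, fell with siRNA 1 by 0.84 and had 3 almost equal siRNA 2 arrays. RPA1 read 10.42, 10.55 and 10.46 with control siRNA, 9.76, 9.99 and 9.96 with siRNA 1 and 10.33, 10.53 and 10.43 with siRNA 2. RPA2 read 10.04, 10.07 and 10.11 with control siRNA, 9.79, 9.92 and 9.85 with siRNA 1 and 10.25, 10.36 and 10.47 with siRNA 2. RPA1 and RPA2, subunits of the protein that coats single-stranded DNA, differed: RPA1 fell with siRNA 1 (-0.57), whereas RPA2 had -0.22 (adjusted p = 0.0886) and rose with siRNA 2 (0.29). LIG1 read 7.76, 7.92 and 7.72 with control siRNA, 7.27, 7.57 and 7.11 with siRNA 1 and 7.69, 7.65 and 7.69 with siRNA 2. LIG1, the ligase that seals Okazaki fragments, fell with siRNA 1 (-0.48), and its siRNA 2 arrays lay just below the control arrays (-0.12, adjusted p = 0.594).

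Nucleotide synthesis genes split. RRM2 read 7.93, 7.85 and 8.25 with control siRNA, 6.75, 7.05 and 6.63 with siRNA 1 and 8.06, 8.67 and 8.31 with siRNA 2. RRM1 read 11.04, 11.0 and 10.86 with control siRNA, 10.10, 10.29 and 9.97 with siRNA 1 and 10.99, 11.37 and 11.07 with siRNA 2. RRM2 and RRM1, the subunits of ribonucleotide reductase, fell with siRNA 1 by 1.20 (adjusted p = 3.91e-05) and 0.85 (adjusted p = 0.000218). RRM2 had a difference of -1.54 between the siRNAs (95% interval -1.85 to -1.23), which is 2.9-fold. Over the other settings and leave-out fits that difference ranged from -2.83 to -1.375, so its size depended on the processing. TYMS read 11.22, 11.26 and 11.04 with control siRNA, 11.47, 11.75 and 10.98 with siRNA 1 and 11.93, 11.71 and 11.48 with siRNA 2. TYMS, thymidylate synthase, overlapped control with siRNA 1, where replicate 3 was the lowest of all WM266-4 arrays and replicates 1 and 2 lay above every control array (0.23, adjusted p = 0.418), and it rose with siRNA 2 (0.53, adjusted p = 0.0435), the call that 5 of 14 leave-out fits kept.

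Histone supply genes fell with siRNA 1. SLBP read 9.33, 9.36 and 9.47 with control siRNA, 8.11, 8.12 and 8.24 with siRNA 1 and 9.48, 9.64 and 9.59 with siRNA 2. SLBP, which binds the stem-loop of replication-dependent histone mRNAs, had siRNA 1 arrays close together and a difference from control of -1.23 (SE 0.0789, adjusted p = 1.13e-07), which is 2.35-fold. CHAF1B read 8.22, 7.85 and 8.12 with control siRNA, 7.23, 7.30 and 7.51 with siRNA 1 and 8.13, 8.40 and 8.41 with siRNA 2. CHAF1A read 7.23, 7.19 and 7.07 with control siRNA, 6.68, 6.86 and 6.81 with siRNA 1 and 7.32, 7.74 and 7.53 with siRNA 2. CHAF1B and CHAF1A, subunits of the CAF-1 chaperone that deposits histones behind the fork, fell by 0.72 and 0.38, and CHAF1A rose with siRNA 2 (0.37, adjusted p = 0.0493), the call that 4 of 14 leave-out fits kept.

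The G1 to S regulators did not fall with siRNA 1. E2F1 read 7.08, 7.02 and 7.15 with control siRNA, 7.55, 7.20 and 7.43 with siRNA 1 and 6.91, 6.96 and 6.94 with siRNA 2. E2F1, the transcription factor that drives many of the other genes, was above all control arrays with siRNA 1 (0.31, adjusted p = 0.0429) and below them with siRNA 2 (-0.15, adjusted p = 0.459). Its siRNA 1 minus siRNA 2 difference was 0.46 (adjusted p = 0.00857). The call against control was lost in 9 of the 14 fits that left out an array. CCNE1, a cyclin that activates CDK2, had differences of 0.05 and 0.15, within the spread between arrays.

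**Figure D2:**
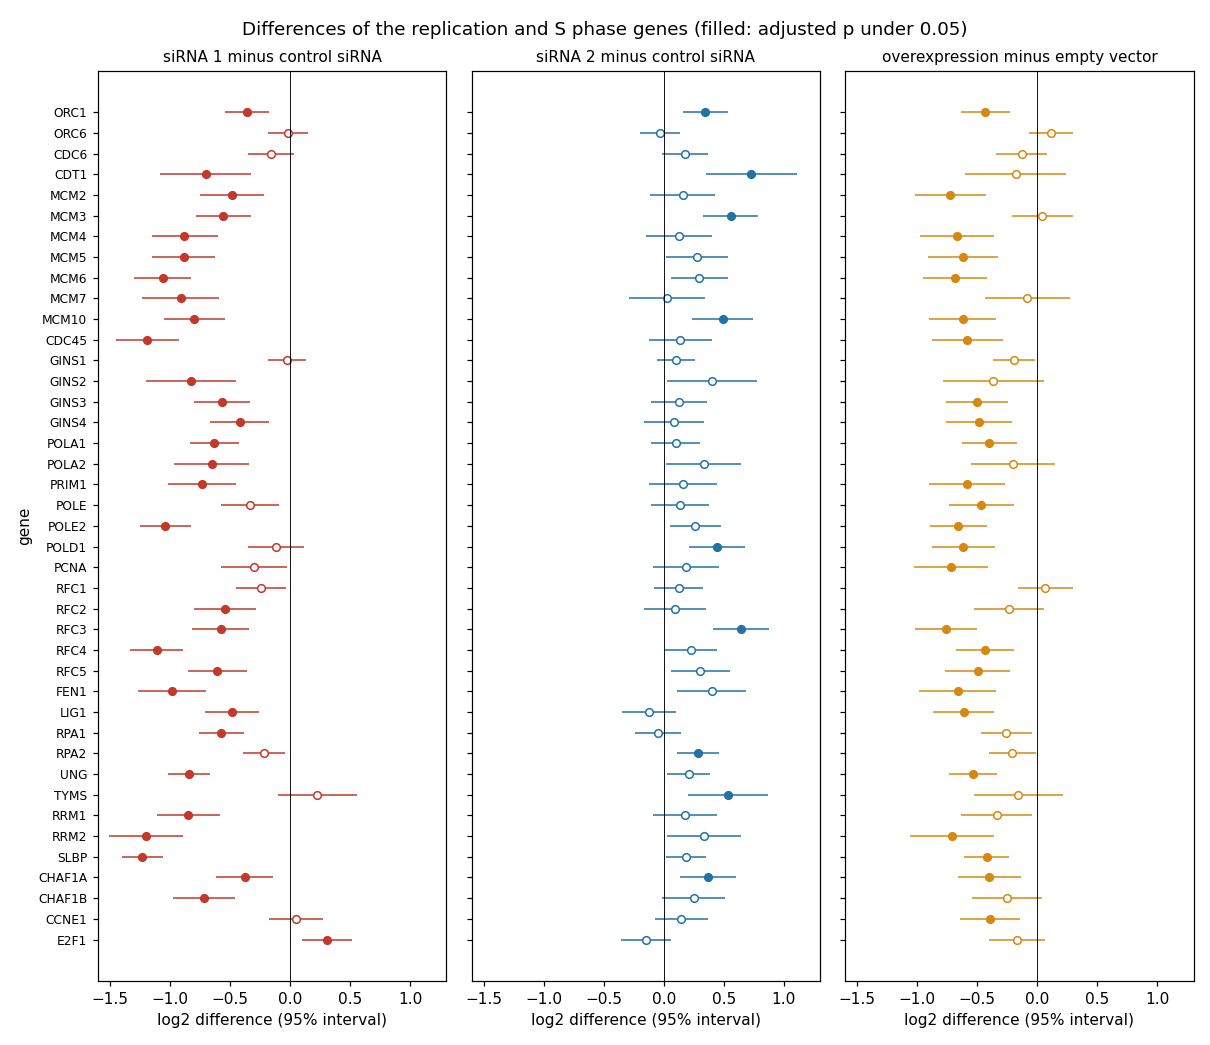
Log2 difference of each of the 41 genes (rows) in 3 comparisons, with 95% intervals from limma as lines and filled points at an adjusted p under 0.05. In the left panel 30 points are filled below 0 and E2F1 above it, in the middle panel 9 are filled above 0, and in the right panel 25 are filled below 0.

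In A375 cells, FOXD1 overexpression also went with lower signals of these genes. Of the 41 genes, 25 fell and 0 rose by the limma test, against 5.14% of all genes lower and 5.5% higher. At an unadjusted p under 0.05, 29 were lower and 0 higher, against 12.1% and 11.7% of all genes. The median difference was -0.43, against 0.002 over all genes, and the differences reached from -0.76 (RFC3) to 0.11 (ORC6). The empty vector group holds 2 arrays, so a fit without either of them rests on a single vector array. In such fits fewer of the 41 genes and fewer of all genes were called. Without overexpression replicate 1, 2 or 3, the count of genes that fell was 23, 17 and 22. Over all 15544 genes, 1466, 1173 and 1676 were then called in either direction, against 1654 in the main fit. MCM6, POLE2, RFC3 and UNG stayed called in each of the 14 fits that left out an array. After normexp background correction and quantile normalization over 14 arrays, 16 genes fell. For empty vector replicate 1 the input was the authors' log2 values made linear, and for the other arrays the deposited intensities. The repeated intensity column had a Spearman correlation of 0.9999 with the log2 values of overexpression replicate 3. With those of empty vector replicate 1 it had 0.7773. With that processing and the repeated column taken as deposited, 0 of all 15544 genes were called by limma, and 1 of the 41 had an unadjusted p under 0.05. That fit places an overexpression signal in the vector group, so it cannot test the overexpression result.

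The MCM subunits divided in A375. MCM2 read 8.04 and 8.59 with the empty vector and 7.63, 7.77 and 7.37 with FOXD1 overexpression. MCM4 read 10.37 and 10.53 with the empty vector and 9.99, 9.77 and 9.58 with FOXD1 overexpression. MCM5 read 9.75 and 9.91 with the empty vector and 9.32, 9.38 and 8.93 with FOXD1 overexpression. In MCM2 the vector arrays differed by more than the lowest vector array did from the highest overexpression array, and all overexpression arrays still lay below both. MCM6 read 11.07 and 10.83 with the empty vector and 10.19, 10.30 and 10.31 with FOXD1 overexpression. MCM6 differed by -0.68 (95% interval -0.95 to -0.42, adjusted p = 0.0032). MCM2, MCM4 and MCM5 differed by -0.73, -0.67 and -0.62. MCM3 (0.04) and MCM7 (-0.08) did not pass the test, and their overexpression arrays overlapped the vector arrays.

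Of the licensing genes, ORC1 fell with overexpression (-0.43, adjusted p = 0.00985), and CDC6 (-0.13) and CDT1 (-0.18) did not pass the test. The CDT1 vector arrays were far apart, at 8.69 and 7.86, with the overexpression arrays at 8.22, 8.17 and 7.89 between them. The other ORC6 probe differed by -0.65 and was called lower over probes. CDC45 read 10.88 and 10.72 with the empty vector and 10.19, 10.38 and 10.08 with FOXD1 overexpression. MCM10 read 8.87 and 8.69 with the empty vector and 8.19, 7.99 and 8.29 with FOXD1 overexpression. GINS3 read 8.31 and 8.24 with the empty vector and 7.87, 7.70 and 7.75 with FOXD1 overexpression. CDC45, MCM10 and GINS3 differed by -0.58, -0.62 and -0.50, with no overlap of the groups. GINS4 fell by 0.49, and GINS2 (-0.37) did not pass the test. GINS1 was not detected on any overexpression array, and its bound of 1.06-fold lower did not pass the limma test (adjusted p = 0.164).

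All polymerase genes except POLA2 (-0.20) fell with overexpression. POLE2 read 9.11 and 8.92 with the empty vector and 8.30, 8.46 and 8.30 with FOXD1 overexpression. POLD1 read 7.98 and 8.13 with the empty vector and 7.55, 7.54 and 7.22 with FOXD1 overexpression. PRIM1 read 9.17 and 9.21 with the empty vector and 8.56, 8.70 and 8.54 with FOXD1 overexpression. POLE2, POLD1 and PRIM1 differed by -0.66 (adjusted p = 0.00194), -0.62 (adjusted p = 0.0052) and -0.59 (adjusted p = 0.0189), and POLE and POLA1 by -0.47 and -0.40. RFC3 read 8.96 and 8.66 with the empty vector and 8.12, 7.94 and 8.08 with FOXD1 overexpression. PCNA read 11.84 and 11.84 with the empty vector and 11.17, 10.97 and 11.23 with FOXD1 overexpression. RFC3 and PCNA had the lowest differences of the clamp and loader genes, -0.76 (adjusted p = 0.0014) and -0.72 (adjusted p = 0.00583). RFC4 and RFC5 fell by 0.44 and 0.50, and RFC1 (0.07) and RFC2 (-0.24) did not pass the test.

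FEN1 read 10.74 and 11.27 with the empty vector and 10.23, 10.56 and 10.23 with FOXD1 overexpression. LIG1 read 8.22 and 8.27 with the empty vector and 7.62, 7.75 and 7.53 with FOXD1 overexpression. UNG read 10.0 and 9.96 with the empty vector and 9.38, 9.53 and 9.43 with FOXD1 overexpression. FEN1, LIG1 and UNG fell by 0.67, 0.61 and 0.53, and the FEN1 vector arrays differed from each other more than the vector mean did from replicate 2 of overexpression. RPA1 (-0.26) and RPA2 (-0.21) did not pass the test. RRM2 read 8.24 and 8.38 with the empty vector and 7.56, 7.57 and 7.67 with FOXD1 overexpression. RRM2 differed by -0.71 (adjusted p = 0.0116), whereas RRM1 (-0.34) and TYMS (-0.16) did not pass the test. SLBP fell by 0.42 (adjusted p = 0.00693), CHAF1A by 0.40 (adjusted p = 0.0492, kept in 2 of 14 leave-out fits) and CCNE1 by 0.40 (adjusted p = 0.0417), while CHAF1B (-0.25) and E2F1 (-0.17) did not pass the test.

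**Figure D3:**
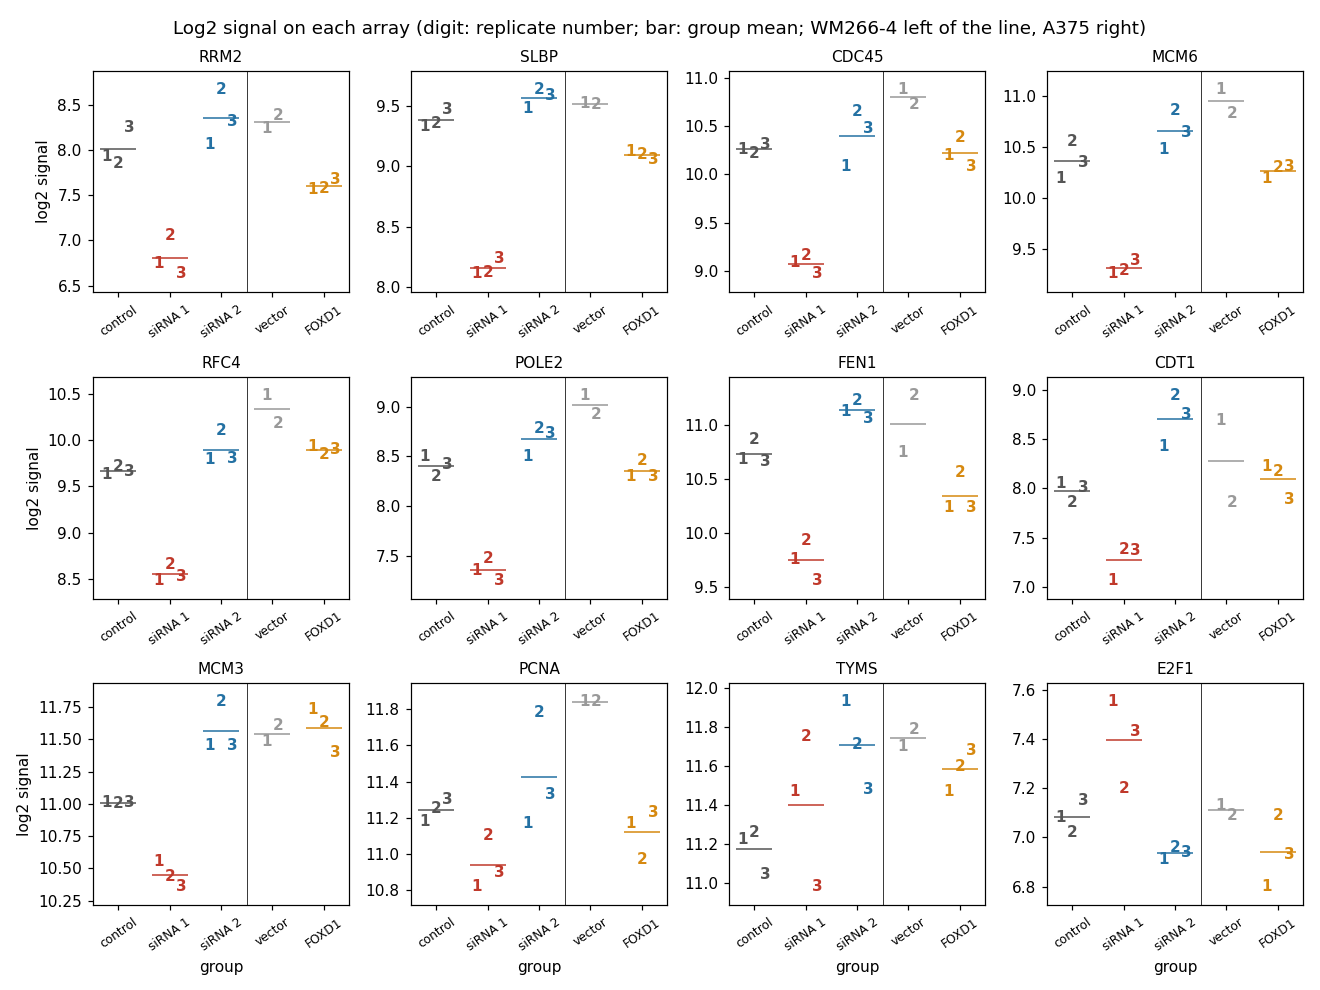
Log2 signal on each array for 12 of the genes, with the digit giving the replicate number and the bar the group mean. RRM2, SLBP, CDC45, MCM6, RFC4, POLE2 and FEN1 are lowest on the 3 siRNA 1 arrays, MCM3 and CDT1 go both ways with the siRNAs, and E2F1 is highest with siRNA 1.

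The siRNA contrasts and the overexpression contrast share no array. Of the 30 genes that fell with siRNA 1, 21 (70.0%) also fell with overexpression, and these were 84.0% of the 25 that fell there. Over all 41 genes, 61% fell with overexpression and 73.2% with siRNA 1, so much of this overlap follows from the 2 counts alone. Whether the overlap exceeds that was not tested. CDT1, MCM3, MCM7, GINS2, POLA2, RFC2, RPA1, RRM1 and CHAF1B fell with siRNA 1 and were not called with overexpression. The difference between these contrasts was not tested. POLE, POLD1, PCNA and CCNE1 were called lower with overexpression and not with siRNA 1 in the fit without the replicate block. With the block, limma called POLE and PCNA lower with siRNA 1 too, and POLE, POLD1 and PCNA were lower in siRNA 1 minus siRNA 2 as well. Across the 41 genes, the differences of siRNA 1 minus siRNA 2 and of overexpression had r = 0.438, a description over genes that share their arrays within each contrast.

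**Figure D4:**
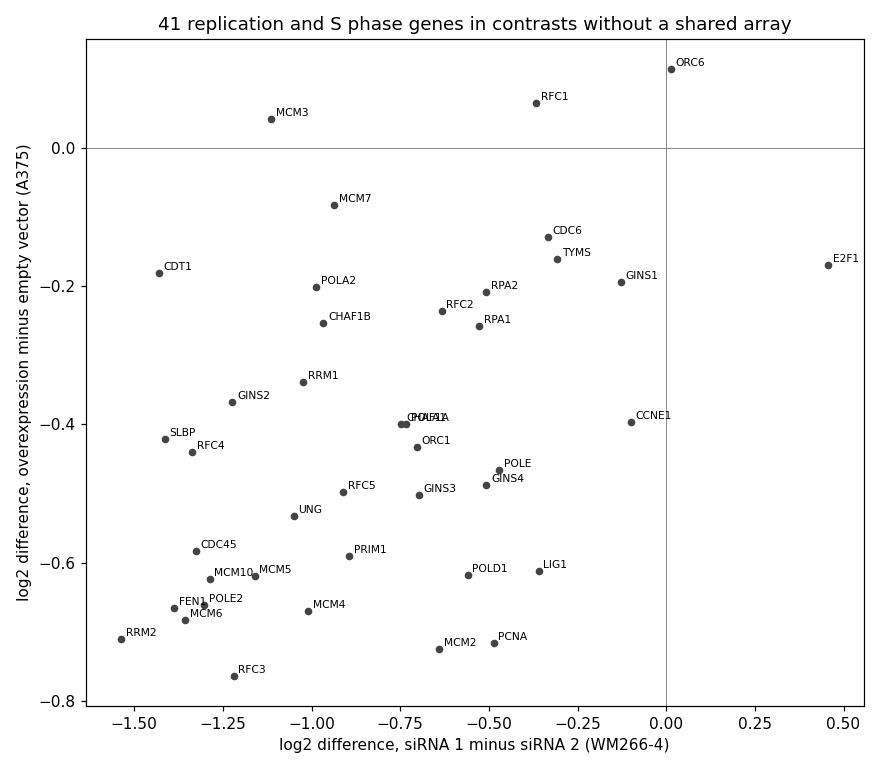
Log2 difference of each of the 41 genes for siRNA 1 minus siRNA 2 in WM266-4 (x axis) and for overexpression minus empty vector in A375 (y axis). Most genes lie below 0 on both axes, MCM3, MCM7 and CDT1 lie low on the x axis and near 0 on the y axis, and E2F1 lies at 0.46 on the x axis.

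Other probes bear on the calls. Of the 41 genes, 18 had at least 1 further detected probe. For 14 of the 31 genes called with siRNA 1 there were 18 such probes, of which 16 had the same sign and 11 were called the same way, and 0 were called the opposite way. For 3 of the 9 genes called with siRNA 2 there were 4 such probes, of which 3 had the same sign, 1 the opposite sign and 0 a call. For 12 of the 25 genes called with overexpression, 11 of 15 such probes had the same sign, 5 were called the same way and 0 the opposite way. The other RFC4 probe gave -1.18 and the other SLBP probe -1.03 with siRNA 1. Both further PCNA probes had no call in any comparison, and 1 further RFC3 probe gave -0.70 with siRNA 1 and 0.23 with siRNA 2, the other -0.54 and -0.18, with calls for siRNA 1 only. The further UNG, POLA1, RFC1 and RFC5 probes differed by 0.13 or less in each comparison, without a call.

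The level of the 41 genes varied with the replicate number in both siRNA groups. Of the 41 genes, 29 were highest on replicate 2 among the siRNA 1 arrays, 33 on replicate 2 among the siRNA 2 arrays and 17 on replicate 2 among the control arrays. The replicate that was most often lowest was 1 with control siRNA (18 genes), 3 with siRNA 1 (20) and 1 with siRNA 2 (27). Such counts were not taken over all genes. The mean over the 41 genes was 8.93 to 8.95 on the control arrays, 8.30 to 8.46 with siRNA 1 and 9.06 to 9.33 with siRNA 2. Within replicate numbers 1, 2 and 3 the mean difference of siRNA 1 from control was -0.59, -0.49 and -0.65, that of siRNA 2 was 0.14, 0.38 and 0.19, and that of siRNA 1 from siRNA 2 was -0.73, -0.87 and -0.83. In A375 the mean was 9.30 to 9.38 with the empty vector and 8.87 to 8.97 with overexpression. None of these ranges overlapped within a cell line.

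Genes of G2 and mitosis were measured beside them. Their mean over 22 genes was 8.76 to 9.28 on the control arrays, 7.89 to 8.68 with siRNA 1, 8.90 to 9.39 with siRNA 2, 9.23 to 9.29 with the empty vector and 8.42 to 8.87 with overexpression. With siRNA 1, 13 of the 22 fell and 0 rose, led by CDK1 (-1.65), TOP2A (-1.44), HMMR (-1.25) and BUB1 (-1.12). With siRNA 2, 0 were called in either direction, and with overexpression 5 fell, among them AURKB (-1.28), TPX2 (-1.10), BUB1 (-1.0) and AURKA (-0.94). For this list and those below, 7.41% of all genes were lower and 7.89% higher with siRNA 1, and 3.85% and 5.1% with siRNA 2. These shares were 4.46% and 2.71% for siRNA 1 minus siRNA 2, and 5.14% and 5.5% with overexpression. A count of 1 gene in a list lies near such shares. CDK1 drives entry into mitosis, TOP2A untangles sister chromatids, and AURKA and AURKB are mitotic kinases. Unlike the mitotic mean, the mean of the replication genes was nearly the same on the 3 control arrays. The share of cells in each phase was not measured, and its part in the results was not tested.

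**Figure D5:**
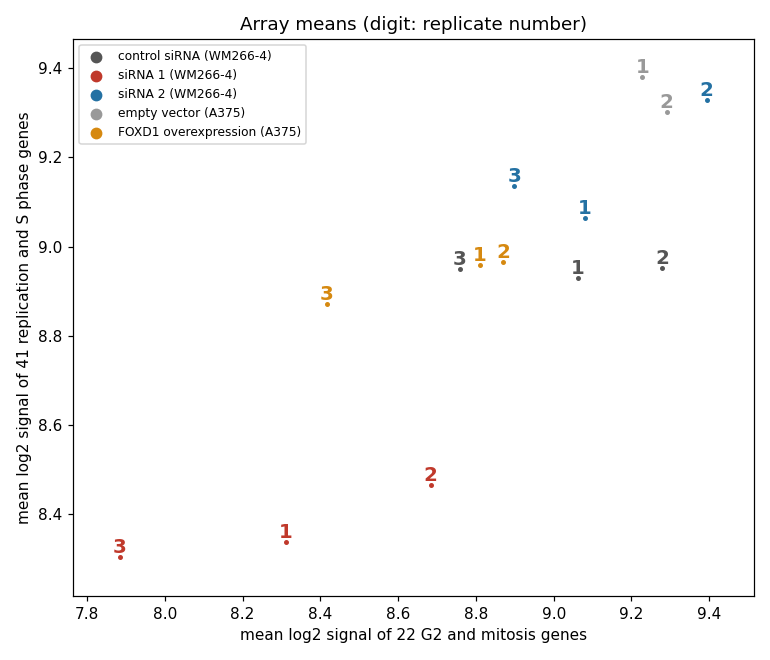
Mean log2 signal of the 41 replication and S phase genes (y axis) against that of 22 G2 and mitosis genes (x axis), 1 digit per array giving its replicate number and colours giving the groups. The control arrays spread along the x axis at almost the same height, and the siRNA 1 arrays lie lowest on the y axis.

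Further replication and chromatin duplication genes were also measured. Of 41 tested, 14 fell and 2 rose with siRNA 1 (median -0.21), 1 fell and 6 rose with siRNA 2 (median 0.11), 18 were lower in siRNA 1 minus siRNA 2, and 11 fell and 1 rose with overexpression (median -0.31). The histone chaperone ASF1B (-1.15), the methylation maintenance factor UHRF1 (-1.0), the nuclease EXO1 (-0.92) and the mismatch repair gene MSH6 (-0.76) led the decreases with siRNA 1. The origin complex genes ORC2 (0.67) and ORC5 (0.40) rose with siRNA 1, against ORC1, and also with siRNA 2 (0.46 and 0.68). With siRNA 2, POLE3 fell (-0.60), and with overexpression MCM8 rose (0.41) while UHRF1 and CHTF18 fell (both -0.72).

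Nucleotide supply genes outside the set were mixed. Of 22 tested, 4 fell and 3 rose with siRNA 1, 0 fell and 4 rose with siRNA 2, 8 were lower and 1 higher in siRNA 1 minus siRNA 2, and 5 fell and 1 rose with overexpression. The folate enzyme MTHFD2 (-1.21) and thymidine kinase TK1 (-0.86) fell with siRNA 1, and TK1 also with overexpression (-0.78). IMPDH1, an enzyme of guanine nucleotide synthesis, rose with siRNA 1 (1.14) and with siRNA 2 (1.05). RRM2B, the p53-induced reductase subunit that can stand in for RRM2, rose with siRNA 1 (0.30) and with overexpression (0.92), the comparisons in which RRM2 fell.

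Among 30 G1 and S phase regulators, 7 fell and 5 rose with siRNA 1, 1 fell and 7 rose with siRNA 2, 8 were lower and 2 higher in siRNA 1 minus siRNA 2, and 7 fell and 2 rose with overexpression. The decreases with siRNA 1 were led by CKS1B (-1.09), a partner of cyclin-dependent kinases, FBXO5 (-0.98), an inhibitor of the anaphase-promoting complex, CCNA2 (-0.95), the S phase cyclin, and CDKN1B (-0.94), which encodes the inhibitor p27. The inhibitor gene CDKN1A (0.84), which encodes p21, and the cyclin gene CCND3 (0.79) rose with siRNA 1. CDKN1A had an adjusted p of 8.89e-05 for siRNA 1 minus siRNA 2 (0.90) and rose with overexpression (0.63), where the cyclin gene CCND2 rose by 1.57. With siRNA 2, CDKN1B fell (-0.79) and CCND3 (1.38), E2F7 (0.83) and E2F2 (0.73) rose.

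Of 12 replication checkpoint genes tested, 5 fell with siRNA 1, 1 rose with siRNA 2, 6 were lower in siRNA 1 minus siRNA 2 and 2 fell with overexpression. With siRNA 1 the largest called decreases of this list were in USP1 (-0.91), FANCI (-0.88), WEE1 (-0.80) and BRCA1 (-0.68). BRCA1, a repair gene, also gave the rise with siRNA 2 (0.38), and BLM (-0.51) and FANCI (-0.50) were the genes that fell with overexpression.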

How the data were processed

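RNA of 14 cell line samples was measured on Illumina bead arrays. The deposited intensity of each probe is linear and not normalized, per the file headers, and a detection p-value stands beside it in the deposited table. For WM266-4, the authors' deposited log2 table matched log2 intensities quantile normalized within that line without background subtraction, to within 0.0053. The A375 values were not compared in this way. Values were missing for 10 of 48107 probes, which were dropped, and gene names came from the platform annotation. Probes detected at p under 0.05 on at least 2 arrays were kept and the brightest named probe represented a gene. A single limma fit (3.58.1, R 4.3.3) of the 5 groups, with no covariate (residual degrees of freedom 9, prior 6.55), gave every adjusted p (Benjamini-Hochberg over 15544 genes, threshold 0.05) after checks on simulated data. The number of arrays limits the precision. Of the intensities of empty vector replicate 1, 100% lay within 1% of those of overexpression replicate 3, and the detected share of that array rests on its detection p-values.

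Same-numbered WM266-4 arrays deviated together (correlations of 0.222 to 0.391 over 9 pairs, against -0.302 to -0.0623 between numbers), so the numbers were taken to pair them. The deviations were from group means and cancel within a group. The negative values between numbers therefore follow from the positive ones and are no separate evidence. In A375 the 2 pairs gave -0.0308 and 0.0561. The genes and lists were chosen with earlier results of these data known. All 42 genes are named, with values per array where a change of at least 0.5 passed the test in that cell line or went against most others, and from other lists at most 4 genes per direction and comparison, those with the largest called changes, and any that moved against its list. Probes not detected in a whole group have folds as bounds, the bright mean over the higher of the lowest detected signal and the probe's own signal. These bounds take no account of the spread between arrays.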

Additional observations from a re-analysis of the deposited data

How the results depend on the processing

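With siRNA 1 the count of 31 genes called stayed between 28 and 33 in the 9 other settings run and between 27 and 33 when an array was left out, and 24 of the 31 stayed called in each. For siRNA 1 minus siRNA 2 the 36 calls were 33 to 37 and 31 to 37, and 29 stayed called in each. With siRNA 2 the 9 genes became 4 with normexp background correction and quantile normalization over 14 arrays, 3 with that and the copied column as deposited, 15 with the replicate block, and 3 to 9 when an array was left out (3 without control replicate 1 or siRNA 2 replicate 2, 4 without control replicate 3, 5 without control replicate 2 or siRNA 2 replicate 3). Over all genes, calls in either direction with siRNA 2 went from 1391 to 1021, 721 and 2527 in these settings. With an array left out they were 869 to 1717. Of the 9 genes, MCM3 alone stayed called in every fit. In the normexp fit, the authors' log2 values made linear stood in for the intensities of empty vector replicate 1. With the copied column as deposited, the signal of overexpression replicate 3 stood in both A375 groups, so that fit cannot test the overexpression result. With overexpression the 25 genes became 16 with normexp, 0 with normexp and the copied column as deposited (1 at an unadjusted p under 0.05 by limma), 13 with the A375 arrays alone, 25 with the replicate block, and 7 to 25 when an array was left out. Here the 14 and 7 without an empty vector array rest on a single vector array, assumed to vary like the other groups. ORC6 turned to -0.36 for siRNA 1 minus siRNA 2 and -0.27 for overexpression with the mean of all its detected probes. The block changed no other call than those of POLE and PCNA with siRNA 1, LIG1 between the siRNAs and the 6 genes added with siRNA 2. Over all genes it raised the 1391 calls with siRNA 2 to 2527, 1116 between the siRNAs to 2149 and 1654 with overexpression to 2642, and the last fell to 572 with the A375 arrays alone and to 386 without empty vector replicate 2. The files name no slide, so a slide block was not run. The cause was not tested. Dim probes such as those of CDC6 and GINS1, and of FOXD1 in WM266-4, limit what can be seen.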
